A study of Mus musculus with 32 samples.

Results

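The splicing factors and nuclear ribonucleoproteins described here are the probes whose gene symbol in the platform table starts with Srsf, Hnrnp, Snrp or Sf3. They number 84 of the 25697 probes on the array and cover 47 of its 16593 named genes. The Hnrnp symbols hold 41 probes for 18 genes, Srsf 16 probes for 9 genes, Snrp 16 probes for 11 genes and Sf3 11 probes for 9 genes. A probe entered the tests of a tissue when 4 or more of its 16 arrays gave a signal above the negative controls (detection p below 0.05). That left 68 member probes for 41 genes in hippocampus, 66 probes for 40 genes in muscle, 64 probes for 38 genes in both, and 14 probes in neither. Because that rule also keeps a probe detected in only 1 group, counts over tested members are not counts over all members.

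RNA was profiled on 32 single-channel Illumina bead arrays from female C57BL/6J mice, a wild-type inbred strain, aged 23 months. The mice received intraperitoneal AICAR, a nucleoside that cells convert to an AMP-like activator of AMP-activated protein kinase, 500 mg/kg/day over 3, 7 or 14 days, and the controls received saline over 3 days. Hippocampus and gastrocnemius muscle were collected 33 days after the final dose from saline-perfused mice, with 4 arrays for each of the 8 combinations of tissue and treatment. No group received saline for 7 or 14 days, and whether an array stands for a mouse of its own, and whether muscle and hippocampus were paired within mice, is not stated in the labels, so p-values measure the spread between these arrays. All mice were old, so nothing below compares ages.

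Introns are removed from nuclear transcripts by the spliceosome, which is built from small nuclear ribonucleoproteins (snRNPs) on each pre-mRNA. The Snrp genes encode the Sm proteins that ring the spliceosomal RNAs and proteins particular to the U1 and U2 particles, and the Sf3 genes encode the part of U2 that holds the branch point. SR proteins (Srsf) bind exons and favour their inclusion, while the abundant heterogeneous nuclear ribonucleoproteins (Hnrnp) coat new transcripts and often favour exon skipping. The array measures the RNA of these genes and not the splicing of their targets.

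The first principal component of each tissue (36% of hippocampal and 44.9% of muscle variance) divided the saline and 3-day arrays from the 7- and 14-day arrays. The mean background signal followed the same division, at 122 to 133.4 intensity units in the saline and 3-day groups of both tissues and 152.6 to 169.9 in the 7- and 14-day groups, and its part in the results was not tested. The labels number the samples treatment by treatment, so an effect of working order and the treatment cannot be told apart. Muscle fibre markers were detected in muscle (10 of 10) and 6 of 10 were undetected on every hippocampal array, while 6 of 10 neuron markers were undetected on every muscle array. Choroid plexus markers (8 of the 10 listed are on the array, and none of the 8 was undetected) summed to 2992 to 35615 intensity units in saline hippocampi, 5712 to 44562 at 3 days, 4483 to 42735 at 7 days and 34152 to 45332 at 14 days. Of 10 tested microglia markers 3 rose and 1 fell at both 7 and 14 days, with sums of 3828 to 4192 in saline and 3847 to 4863 at 14 days. In muscle 2 of 8 fibroblast markers rose and 2 fell at 7 days and 3 rose at 14 days, among them Col3a1 (1.31 and 1.34) and Col1a2 (1.44 and 1.02). The fibroblast list summed to 23894 to 26764 intensity units in saline, 22001 to 26473 at 3 days, 26320 to 29842 at 7 days and 26275 to 29454 at 14 days. Of 9 microglia and macrophage markers tested in muscle 1 rose and 2 fell at 7 days and 1 rose at 14 days (sums of 925 to 1244 in saline, 656 to 1030 at 7 days and 915 to 1138 at 14 days). Of 4 red cell markers 1 rose at 7 days and 0 at 14 days (716 to 4840, 2000 to 7589 and 909 to 4426). The part of these cell types in the results of either tissue was not tested. In tissue RNA, fewer cells of a type and less RNA per cell cannot be told apart.

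Promoters of the members were read from RefSeq (GRCm38.p6), which held 58 windows of 300 bases for 42 of the 47 genes. Both strands were searched for 6 motifs. The GC box GGGCGG was in 67.2% of member windows and 35.7% of all 32851 windows, and the ETS motif CCGGAAG in 31% and 8.86%. CCAAT was in 44.8% and 37.4%, TATAAA in 12.1% and 13.6%, the NRF1 motif in 0% and 0.971%, and the YY1 motif in 1.72% and 0.633%. Member windows had a median of 25 CpG dinucleotides and 60.3% G or C, against 7 and 52.7% over all windows. The matches describe letters in these windows and do not show binding. Shown here are the windows of the genes with the largest muscle rises, Hnrnpdl (chr5:100039173-100039472, minus strand) and Hnrnpa2b1 (chr6:51469796-51470095, minus strand), and of Snrpd3 (chr10:75517792-75518091, plus strand), which rose in hippocampus. Each runs 5′ to 3′ from 250 bases before the annotated start, with matches to the motifs in capitals. Hnrnpdl holds 3 GC boxes and Hnrnpa2b1 a CCAAT box. Snrpd3 holds a GC box that overlaps a CCAAT box, so that their capitals run together, and a further CCAAT box.
Hnrnpdl: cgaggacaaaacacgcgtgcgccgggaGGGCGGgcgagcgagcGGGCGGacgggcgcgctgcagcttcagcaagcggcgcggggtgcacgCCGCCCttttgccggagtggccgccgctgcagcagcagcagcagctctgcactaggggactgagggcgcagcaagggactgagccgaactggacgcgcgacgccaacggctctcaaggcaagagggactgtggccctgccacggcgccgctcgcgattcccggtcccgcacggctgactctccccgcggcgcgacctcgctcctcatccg
Hnrnpa2b1: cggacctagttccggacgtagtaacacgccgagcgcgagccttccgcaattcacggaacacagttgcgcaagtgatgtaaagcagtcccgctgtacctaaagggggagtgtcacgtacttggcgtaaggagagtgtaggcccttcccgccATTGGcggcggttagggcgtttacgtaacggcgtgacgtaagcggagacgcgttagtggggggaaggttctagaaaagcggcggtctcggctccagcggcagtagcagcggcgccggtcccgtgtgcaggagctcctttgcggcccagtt
Snrpd3: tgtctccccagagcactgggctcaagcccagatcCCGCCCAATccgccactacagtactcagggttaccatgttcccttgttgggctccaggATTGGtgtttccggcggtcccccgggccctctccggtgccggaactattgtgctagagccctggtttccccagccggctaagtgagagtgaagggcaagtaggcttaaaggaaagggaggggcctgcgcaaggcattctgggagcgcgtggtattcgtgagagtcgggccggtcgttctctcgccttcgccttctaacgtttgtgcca

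A month after longer courses of AICAR the hippocampus held both higher and lower members, and muscle held a few large hnRNP rises. In hippocampus 13 of 68 member probes rose and 11 fell after 7 days, and 15 rose and 11 fell after 14 days. That is 35.3% of the members at 7 days beside 27.1% of all 13659 tested probes (13.1% higher and 14% lower), and 38.2% beside 29.5% at 14 days (13.7% higher and 15.9% lower). In muscle 6 of 66 rose and 5 fell after 7 days, and 7 rose and 4 fell after 14 days, which is 16.7% of the members at either duration beside 19.7% and 18.8% of all 12977 tested probes (10.8% higher and 8.86% lower at 7 days, 11% and 7.81% at 14 days). The median change over the members was 0.03 in hippocampus and -0.09 in muscle at 14 days, and over all tested probes -0.04 and -0.08. Calls are adjusted p-values below 0.05 from limma (Benjamini-Hochberg over all tested probes of the tissue), and changes are log2 differences from saline with the model's standard error (SE) over 4 arrays per group.

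The direction of small changes depended on how arrays were scaled. When arrays were scaled by their medians instead of quantile-normalized, the median change of all hippocampal probes moved from -0.03 to 0.18 at 7 days and from -0.04 to 0.07 at 14 days, and that of all muscle probes moved from -0.08 to -0.24 and from -0.08 to -0.25. The member calls then became 23 higher and 2 lower at 7 days and 12 higher and 1 lower at 14 days in hippocampus. In muscle they became 6 higher and 22 lower, then 5 higher and 21 lower. The members moved much as the array did. In hippocampus 92% and 92.3% of member calls were higher, beside 93.2% and 87.5% of all calls. In muscle these shares were 21.4% and 19.2%, beside 21.5% and 19.4%. At 14 days 12 of the 15 hippocampal rises and 1 of the 11 falls passed under both scalings, and in muscle 5 of the 7 rises and 4 of the 4 falls did. Hippocampal falls below are thus given relative to quantile-normalized arrays.

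**Figure D1:**
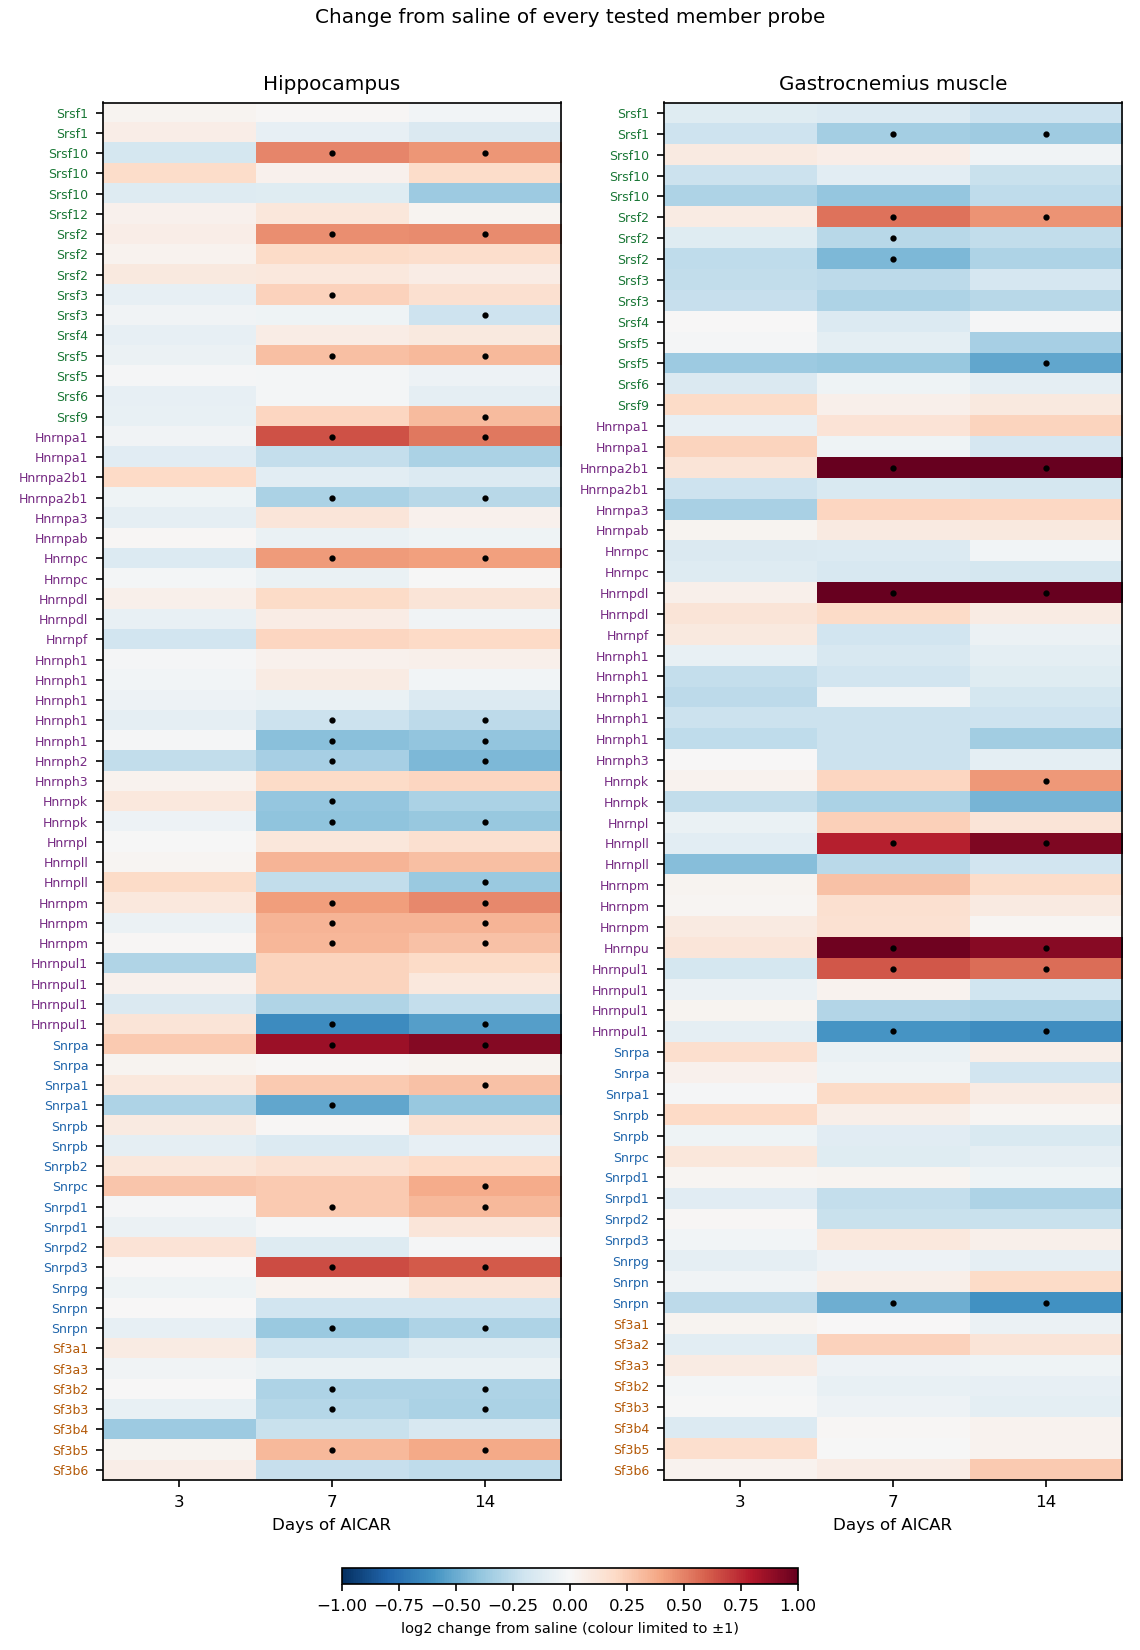
Log2 change from saline (colour, limited to ±1) of each tested member probe after 3, 7 and 14 days of AICAR, for 68 probes in hippocampus and 66 in muscle, ordered by family (green Srsf, purple Hnrnp, blue Snrp, orange Sf3). Black dots mark adjusted p below 0.05; the 3-day columns hold none, and the darkest red cells are the muscle probes of Hnrnpa2b1 and Hnrnpdl.

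Among the SR proteins, hippocampus showed rises of Srsf2, Srsf10, Srsf5 and Srsf9 after 14 days (4 of 16 probes) and a fall of Srsf3 (1 probe). Over all tested hippocampal probes 13.7% rose and 15.9% fell at 14 days. Srsf2 (SC35), a splicing activator that marks nuclear speckles, stood at 10.74, 10.76, 10.84 and 10.79 on the saline arrays by probe ILMN_2636335 (normalized log2 intensity). The 7-day arrays read 11.29, 11.25, 11.22 and 11.22, and the 14-day arrays 11.27, 11.24, 11.25 and 11.27. All 8 longer-course arrays lay above all 4 saline arrays. The change was 0.46 ± 0.07 at 7 days (adjusted p = 0.000291) and 0.47 ± 0.07 at 14 days (adjusted p = 0.000224, limma). The other Srsf2 probes stood at 0.18 and 0.08 at 14 days and did not pass.

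Srsf10 (SRp38), which becomes a general splicing repressor when dephosphorylated, rose by 0.44 ± 0.13 at 14 days (adjusted p = 0.0166, limma). Its probe ILMN_3019002 read 7.81, 7.68, 7.85 and 7.80 on saline arrays and 8.25, 8.30, 8.13 and 8.23 after 14 days, with no overlap. Without background correction the rise was 0.29, still a call. Its other probes stood at 0.19 and -0.36. Srsf5 (SRp40) read 11.40 to 11.75 in saline and at least 11.87 after 14 days by ILMN_3148662 (0.32 ± 0.08, adjusted p = 0.00863), and with median scaling it was 0.34 with an adjusted p of 0.0953. The brighter Srsf5 probe stood at -0.05, and the Srsf9 probe, named after its values were seen, at 0.32 ± 0.08 (adjusted p = 0.0114).

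Srsf3, the smallest SR protein, had a probe (ILMN_2733399) that fell by 0.21 ± 0.07 at 14 days (adjusted p = 0.0450, limma) and stood at -0.06 with median scaling. The 14-day call of that probe was lost without any of saline replicates 2, 3 or 4 or of 14-day replicates 1, 3 or 4. Its limma adjusted p was then between 0.0660 and 0.128 and its change between -0.22 and -0.17. The other Srsf3 probe stood at 0.16 at 14 days and was a called rise of 0.23 at 7 days. Srsf1 (ASF/SF2), a founding SR protein that binds exonic enhancers, stood at -0.03 and -0.14 in hippocampus by its probes. Neither passed.

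In muscle 1 of 15 SR probes rose and 2 fell at 14 days, 20% beside 18.8% of all probes. The rise was that of a different Srsf2 probe. ILMN_2806029 read 10.44, 10.39, 10.60 and 10.35 in saline, 11.08, 10.93, 10.96 and 10.96 at 7 days and 11.11, 10.69, 10.70 and 11.06 at 14 days (0.54 ± 0.10 and 0.45 ± 0.10, adjusted p = 0.00101 and 0.00470, limma). The probe that rose in hippocampus, ILMN_2636335, read 11.99 to 12.28 in muscle saline arrays and 11.83 to 11.99 at 7 days (-0.28 ± 0.09, adjusted p = 0.0318), and the remaining Srsf2 probe, ILMN_1235653, stood at -0.45 ± 0.15 (adjusted p = 0.0478), detected on 1 of 4 arrays at 7 days. Of the 7-day calls, the fall of ILMN_2636335 was lost without saline replicates 1, 3 or 4 or 7-day replicates 2, 3 or 4 (adjusted p 0.0507 to 0.0921), and that of ILMN_1235653 without saline replicates 1, 2 or 4 or 7-day replicates 2, 3 or 4 (0.0561 to 0.155) and, at -0.14, without background correction. The 14-day rise of ILMN_2806029 was 0.23 with an adjusted p of 0.134 under median scaling. The 3 Srsf2 probes are annotated to 1 RefSeq transcript, and they moved in opposite directions in muscle at 7 days.

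Srsf5 fell in muscle by 0.52 ± 0.14 at 14 days by ILMN_2772274 (adjusted p = 0.0122, limma). Its arrays read 10.39, 10.31, 10.31 and 10.39 in saline, 10.03, 9.88, 10.13 and 9.92 at 3 days, 9.70, 10.19, 9.80 and 10.20 at 7 days and 9.80, 9.45, 10.13 and 9.93 at 14 days. All 12 treated arrays lay below all 4 saline arrays, and the 3-day change was -0.36 ± 0.14 (adjusted p = 0.356). The other Srsf5 probe stood at -0.33 ± 0.15 and did not pass. Srsf1 fell by 0.36 ± 0.10 at 14 days by ILMN_3142235 (adjusted p = 0.0205), a call lost without saline replicates 1 or 4 or 14-day replicates 2 or 3 (adjusted p 0.0505 to 0.0745). The brightest Srsf3 probe stood at -0.17 and did not pass.

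The largest changes of all members were hnRNP probes in muscle. Hnrnpa2b1, which carries RNAs to distant parts of cells and reads methylated adenosines, has a dim probe (ILMN_2771074) that read 5.92, 6.33, 6.09 and 6.31 on saline arrays and 5.84, 6.81, 6.08 and 6.43 after 3 days. After 7 days it read 8.14, 8.10, 8.40 and 7.93, and after 14 days 8.41, 7.99, 8.03 and 8.38. Every longer-course array lay above every saline and 3-day array. The rise was 1.98 ± 0.18 at 7 days and 2.04 ± 0.18 at 14 days, a 4.11-fold difference (adjusted p = 3.72e-07 and 2.23e-07, limma). Without background correction the rise of this dim probe was 1.02 and 1.06, and it stayed a call. The bright probe of the same gene, ILMN_2615855, read 11.55, 11.31, 11.24 and 11.36 in saline and averaged 11.19 ± 0.15 (SD, n = 4) at 14 days. Those arrays overlapped, and the change was -0.18 ± 0.10 (adjusted p = 0.199). The platform table assigns the probes to different RefSeq transcripts of Hnrnpa2b1, and a further probe was undetected on all 32 arrays.

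Hnrnpdl, an hnRNP D-like protein whose gene is mutated in a human limb-girdle muscular dystrophy, rose to 2.96-fold of saline in muscle at 14 days. Its probe ILMN_2903440 read 9.08, 9.03, 9.29 and 9.13 in saline, 9.29, 9.09, 9.22 and 9.14 at 3 days, 10.84, 10.84, 10.68 and 10.74 at 7 days and 10.87, 10.57, 10.52 and 10.81 at 14 days. The 8 longer-course arrays were high and the other 8 low, with no overlap. The rise was 1.64 ± 0.09 and 1.56 ± 0.09 (adjusted p = 6.60e-09 and 6.33e-09, limma). The other Hnrnpdl probe, ILMN_2690061, is annotated to the same transcript and stood at 0.08 ± 0.15 at 14 days, with saline arrays at 10.56, 9.78, 10.41 and 10.64 that overlapped the treated arrays at 10.60, 10.27, 10.30 and 10.55. Its sign turned, to -0.11, without saline replicate 2 and, to -0.14, with median scaling.

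**Figure D2:**
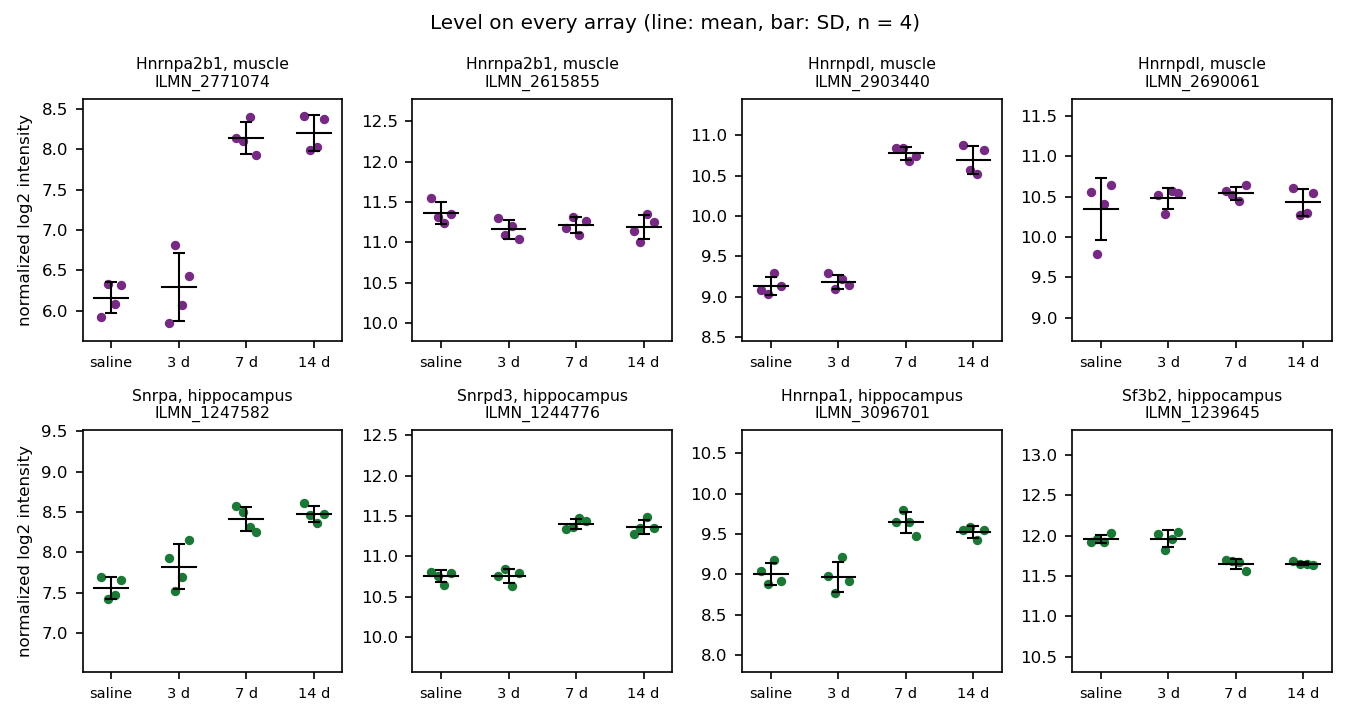
Normalized log2 intensity (vertical axis, 3 units in every panel) of 8 probes on each of the 4 arrays per group, with the mean (line) and SD (bar), for saline and for 3, 7 and 14 days of AICAR. In muscle (purple) 1 probe each of Hnrnpa2b1 and Hnrnpdl is high on all 7- and 14-day arrays while the other probe of each gene overlaps saline; in hippocampus (green) Snrpa, Snrpd3 and Hnrnpa1 are higher and Sf3b2 lower on those arrays.

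Hnrnpu (SAF-A), a nuclear scaffold that binds RNA and chromatin, was undetected on all 4 saline and all 4 3-day arrays of muscle and detected on all 8 longer-course arrays. It read 4.81, 4.99, 5.21 and 4.96 in saline, 5.96, 6.15, 5.76 and 6.00 at 7 days and 6.16, 5.88, 5.96 and 5.60 at 14 days. It was at least 1.56-fold higher at 7 days and at least 1.49-fold higher at 14 days, where the saline level is taken as the lowest detected signal of each array. The probe entered the muscle tests only through the groups in which it is high, so these values are a description with no test, although it is 1 of the muscle rises counted above. In hippocampus the Hnrnpu probe was undetected on all 16 arrays.

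Hnrnpll, which drives the switch of CD45 splicing in lymphocytes, rose by 0.78 ± 0.11 at 7 days and 0.93 ± 0.11 at 14 days in muscle by ILMN_2768850 (adjusted p = 1.26e-05 at 14 days, limma). Its arrays read 7.19, 7.17, 7.58 and 7.06 in saline and 8.27, 8.30, 7.93 and 8.23 at 14 days, without overlap, and its other probe stood at -0.19. Without background correction the 14-day rise was 0.57, still a call. Hnrnpk, a poly(C)-binding protein, rose by 0.44 ± 0.08 at 14 days by ILMN_2784821 (adjusted p = 0.000661), from 7.15, 7.04, 7.08 and 7.19 to 7.54, 7.68, 7.57 and 7.42. That rise was not a call with median scaling, and the other tested Hnrnpk probe stood at -0.47 ± 0.22 and did not pass.

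Hnrnpul1, an hnRNP U-like protein recruited to DNA breaks, was the gene with called probes in opposite directions at both durations in muscle. ILMN_1239335 read 6.43, 6.16, 6.25 and 6.49 in saline and 6.74, 7.18, 6.68 and 6.99 at 14 days (0.56 ± 0.13, adjusted p = 0.00603, limma). ILMN_2675170, annotated to the same transcript, read 7.18, 6.63, 6.59 and 6.90 in saline and 6.22, 6.17, 6.35 and 6.10 at 14 days (-0.62 ± 0.14, adjusted p = 0.00376). Each pair of groups was free of overlap. Without background correction these changes were 0.24 and -0.26, both still calls. The 2 remaining tested Hnrnpul1 probes, on another transcript, stood at -0.20 and -0.31.

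In hippocampus 5 of 30 hnRNP probes rose and 7 fell at 14 days, beside 13.7% and 15.9% of all tested probes. Hnrnpm, an hnRNP with roles in exon choice, rose by all 3 of its probes, at 0.48 ± 0.07, 0.34 ± 0.08 and 0.29 ± 0.09 (adjusted p = 0.000194, 0.00486 and 0.0211, limma). Its probe ILMN_1239021 read 10.59, 10.56, 10.37 and 10.56 in saline and 10.99, 10.89, 11.01 and 11.12 at 14 days. The smallest of the 3 rises was lost without 14-day replicate 2 or saline replicates 1 or 2 (adjusted p 0.0553 to 0.0660, change 0.25 to 0.26), and with median scaling the ILMN_1239021 rise was 0.55 and passed while the other 2, at 0.40 and 0.31, did not. Hnrnpm was the gene with several probes whose calls all passed and pointed 1 way in hippocampus at 14 days.

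Hnrnpa1, a well-studied exon repressor, rose by 0.64 ± 0.10 and 0.53 ± 0.10 in hippocampus by ILMN_3096701 (adjusted p = 0.000376 and 0.00126, limma). It read 9.04, 8.88, 9.17 and 8.92 in saline, 9.64, 9.80, 9.64 and 9.48 at 7 days and 9.55, 9.59, 9.42 and 9.55 at 14 days, all above saline. The dimmer Hnrnpa1 probe stood at -0.31. Hnrnpc, which binds uridine tracts of nascent RNA, rose by 0.41 ± 0.09 at 14 days by ILMN_2511051 (adjusted p = 0.00456), from 9.95, 10.11, 9.94 and 10.18 to 10.45, 10.48, 10.57 and 10.32. The brighter Hnrnpc probe, ILMN_1235470, averaged 13.01 ± 0.04 in saline and 13.01 ± 0.05 at 14 days (SD, n = 4) and was not a call (adjusted p = 0.971, limma).

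The hippocampal hnRNP falls, apart from that of Hnrnpul1, were not calls with median scaling at 14 days. Hnrnpul1 fell by 0.63 ± 0.14 and 0.55 ± 0.14 by ILMN_2688429 (adjusted p = 0.00452 and 0.00884, limma), by 0.41 and 0.40 with median scaling, and by 0.24 and 0.22 without background correction, where it stayed a call. That probe read 6.96, 6.74, 6.44 and 6.77 in saline and 5.95, 6.15, 6.10 and 6.52 at 14 days, which overlap through saline replicate 3 and 14-day replicate 4. The other tested Hnrnpul1 probes were not calls in hippocampus. They averaged 5.47, 5.03 and 5.37 in saline and 5.23, 5.13 and 5.57 at 14 days (ILMN_1239335, ILMN_2675170 and ILMN_2688427). Hnrnph1, which binds runs of G, fell by 0.39 ± 0.08 and 0.26 ± 0.07 by 2 of its 5 tested probes (adjusted p = 0.00324 and 0.00853), and its X-linked relative Hnrnph2 by 0.45 ± 0.10 (0.00418). With median scaling those 3 changes were -0.22, -0.21 and -0.27 with adjusted p-values of 0.244, 0.350 and 0.255. Without background correction Hnrnph2 stood at -0.27, still a call.

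Hnrnpk fell in hippocampus by 0.38 ± 0.12 at 14 days by ILMN_1245987 (adjusted p = 0.0228, limma), and the bright Hnrnpa2b1 probe by 0.28 ± 0.09 (adjusted p = 0.0342). Hnrnpk read 10.84, 11.11, 10.97 and 11.05 in saline and 10.56, 10.58, 10.69 and 10.62 at 14 days. The Hnrnpk call was lost without saline replicates 2 or 4 or 14-day replicates 1 or 2 (adjusted p 0.0532 to 0.0646), and the Hnrnpa2b1 call without saline replicates 3 or 4 or 14-day replicates 1 or 2 (0.0586 to 0.119). The brighter Hnrnpll probe, named after its values were seen, completes the 7 falls at -0.37 ± 0.10 (adjusted p = 0.00896). The other Hnrnpll probe stood at 0.30 and did not pass. The dim Hnrnpa2b1 probe that rose in muscle stood at -0.14 ± 0.17 in hippocampus, where it was detected on 11 of 16 arrays.

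Of the snRNP probes 5 of 15 rose and 1 fell in hippocampus at 14 days (40% beside 29.5% of all probes), and 1 of 13 fell in muscle (7.69% beside 18.8%). The difference between the tissues was not tested for the group. Snrpa, the A protein of the U1 particle, which binds a stem-loop of the U1 RNA, read 7.69, 7.42, 7.47 and 7.65 in saline and 7.93, 7.52, 7.69 and 8.15 at 3 days by ILMN_1247582. It read 8.57, 8.50, 8.32 and 8.25 at 7 days and 8.61, 8.47, 8.37 and 8.47 at 14 days. Every longer-course array lay above every saline and 3-day array. The rise was 0.85 ± 0.12 and 0.92 ± 0.12, the latter 1.89-fold (adjusted p = 0.000195 and 9.57e-05, limma). Without background correction it was 0.55 and 0.60, still a call. The other Snrpa probe, annotated to the same transcript, stood at 0.03 at 14 days.

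Snrpd3, an Sm protein of the ring shared by the spliceosomal snRNPs, has 1 probe, which read 10.81, 10.76, 10.65 and 10.79 in saline, 11.34, 11.37, 11.48 and 11.43 at 7 days and 11.28, 11.35, 11.49 and 11.35 at 14 days. The groups were clear of each other, and the rise was 0.65 ± 0.07 and 0.62 ± 0.07 (adjusted p = 2.69e-05 and 3.38e-05, limma). Its ring partner Snrpd1 rose by 0.33 ± 0.09 at 14 days by its brighter probe (adjusted p = 0.0116) and stood at 0.12 by the other. Snrpc, the C protein of U1, rose by 0.37 ± 0.12 (adjusted p = 0.0310), a call lost without saline replicates 2 or 3 or 14-day replicates 1 or 4 (adjusted p 0.0850 to 0.0939) and, at 0.13, without background correction. Snrpa1, a U2 protein, rose at 14 days by 0.29 ± 0.10 by 1 probe, named after its values were seen (adjusted p = 0.0354, limma). Its other probe, ILMN_2773880, stood at -0.38 at 14 days and was a called fall at 7 days (-0.52). That fall stayed a call with median scaling (-0.49). It was lost without saline replicates 1 or 4 or 7-day replicates 3 or 4 (limma adjusted p 0.0529 to 0.0815). The brightest Snrpb probe, for the Sm protein that SmN replaces in neurons, stood at -0.08 and did not pass.

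Snrpn, the imprinted gene of the neuronal Sm protein SmN, fell by the same probe in both tissues. ILMN_2748091 read 10.31, 10.22, 10.41 and 10.20 in hippocampal saline and 10.02, 9.87, 9.89 and 10.11 at 14 days (-0.31 ± 0.11, adjusted p = 0.0439, limma). In muscle it read 7.14, 7.00, 6.73 and 6.71 in saline and 6.59, 5.84, 6.57 and 6.14 at 14 days (-0.61 ± 0.16, adjusted p = 0.0110), and without background correction that change was -0.25, still a call. The hippocampal call was lost without any 1 of the 4 saline arrays or of 14-day replicates 1, 2 or 3 (adjusted p 0.0554 to 0.113) and with median scaling. The brighter Snrpn probe stood at -0.19 ± 0.08 in hippocampus and 0.19 ± 0.09 in muscle, neither a call. In muscle this was the single snRNP call of 13 probes, beside a Snrpd1 probe at -0.05 and a Snrpb probe at -0.15 that did not pass.

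Among the Sf3 genes, hippocampus had 1 rise and 2 falls over 7 probes at both durations. Muscle had 0 calls over 8 probes at a limma adjusted p below 0.05 and 0 at an unadjusted p below 0.05. Over all tested probes 27.1% and 29.5% were called in hippocampus at 7 and 14 days, and 19.7% and 18.8% in muscle. So few Sf3 probes do not set the family apart from the array. Sf3b5, the smallest SF3b subunit, read 10.66, 10.41, 10.48 and 10.50 in saline and 10.78, 10.85, 10.89 and 11.04 at 14 days (0.38 ± 0.08, adjusted p = 0.00391, limma). The large SF3b subunit gene Sf3b2 read 11.92, 11.96, 11.92 and 12.04 in saline and 11.69, 11.65, 11.65 and 11.64 at 14 days (-0.31 ± 0.07, adjusted p = 0.00323). The WD40-like scaffold subunit Sf3b3 fell by 0.31 ± 0.08 (adjusted p = 0.0116). Subunits of 1 complex thus lay on both sides of saline with quantile normalization, and with median scaling the falls were -0.28 and -0.19 with adjusted p-values of 0.132 and 0.362. Sf3a1 stood at -0.13 in hippocampus and -0.06 in muscle and did not pass, and the Sf3b1 probe, for the subunit that contacts the branch point, was detected on 1 of 16 arrays in each tissue and not tested.

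Different probes of a member gene often disagreed. How often this happened over all genes of the array was not counted, so it is not shown to be particular to the members. Of 19 genes with several tested probes in hippocampus, 16 had a called probe at 14 days and 1 had all its probes called the same way; of 18 in muscle these numbers were 9 and 0. Probes of the same gene had changes of opposite sign in 11 and 9 genes. With the brightest probe standing for each gene, 10 of 41 member genes rose and 8 fell in hippocampus at 14 days, beside 30.1% of all 9534 genes (12.6% higher and 17.5% lower). In muscle 2 of 40 rose and 0 fell, beside 17.9% of all 9030 genes (10.4% higher and 7.48% lower); at an unadjusted p below 0.05, 19 of the 66 muscle probes and 4366 of all 12977 passed. Probe sequences were not used here, so hybridization to paralogues, pseudogenes or other isoforms was not tested.

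**Figure D3:**
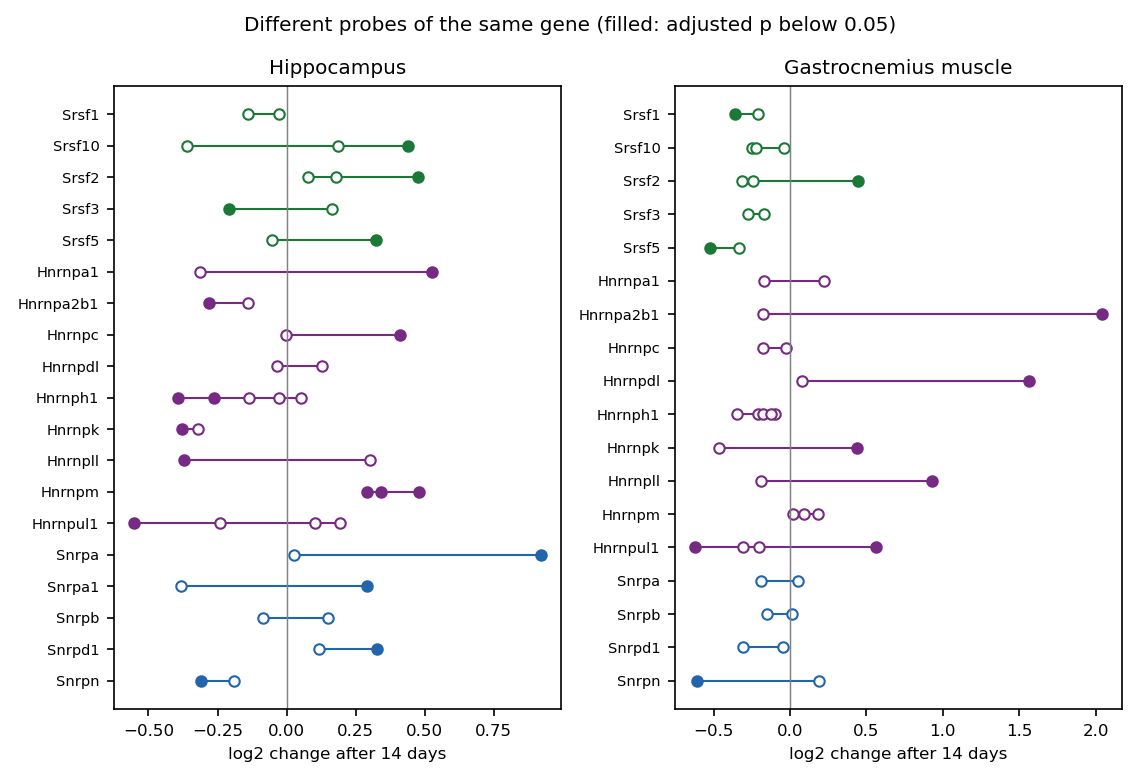
Log2 change from saline after 14 days (horizontal axis) of every tested probe of the 19 member genes with several probes in hippocampus and the 18 in muscle, joined by a line per gene; filled points have adjusted p below 0.05. In muscle Hnrnpa2b1 runs from -0.18 to 2.04 and Hnrnpdl from 0.08 to 1.56, and in hippocampus Snrpa runs from 0.03 to 0.92.

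The question whether AICAR's effect differed between tissues was tested directly, over 11315 probes detected in both. Of 64 members, 5 had a more positive change in muscle and 11 a more negative one at 14 days, 25% beside 16.5% of all probes (7.09% more positive and 9.4% more negative), and 5 and 9 did at 7 days, 21.9% beside 16.7% (7% and 9.74%). With median scaling these became 3 and 28 at 14 days and 3 and 34 at 7 days. Of those member calls 9.68% and 8.11% were more positive in muscle, beside 9.32% and 5.71% of all calls. Without hippocampal saline replicate 2 the 14-day total was 10. The difference, muscle minus hippocampus, was 2.18 ± 0.25 for the dim Hnrnpa2b1 probe and 1.60 ± 0.15 for Hnrnpdl at 14 days (adjusted p = 3.89e-07 and 1.48e-08, limma). Snrpa was at -1.11 ± 0.23 (adjusted p = 0.000993) and the bright Srsf2 probe at -0.72 ± 0.10 (adjusted p = 1.05e-05), both higher than saline in hippocampus and not in muscle. The Hnrnpul1 probes stood at 0.80 ± 0.24 and -0.72 ± 0.23 (adjusted p = 0.0233 and 0.0328), detected on 5 and 4 of 16 hippocampal arrays. Without background correction the 14-day differences were 1.11 for Hnrnpa2b1, -0.74 for Snrpa and 0.31 and -0.30 for Hnrnpul1, all still calls. The positive Hnrnpul1 difference (ILMN_1239335) was lost without hippocampal saline replicate 4 or muscle 14-day replicate 2 (limma adjusted p 0.0556 to 0.0655, change 0.61 to 0.71). The negative Hnrnpul1 difference (ILMN_2675170) was lost without any of 9 arrays (limma adjusted p 0.0509 to 0.0847). Those were muscle saline replicates 1 and 4, muscle 14-day replicates 2 and 4, hippocampal saline replicates 2, 3 and 4, and hippocampal 14-day replicates 1 and 3.

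At 7 days the tissue differences led with the same 2 muscle probes, 2.09 ± 0.25 for Hnrnpa2b1 and 1.57 ± 0.15 for Hnrnpdl (adjusted p = 7.81e-07 and 2.54e-08, limma). On the negative side stood Snrpa at -0.89 ± 0.23, Srsf10 at -0.87 ± 0.20 and Hnrnpul1 at -0.82 ± 0.23 (adjusted p = 0.00714, 0.00295 and 0.0154), and Hnrnpul1 by its other probe stood at 0.92 ± 0.24 (0.00940). Of the 64 shared probes, 1 was called in both tissues at 14 days, the Snrpn probe. That is 4% of the 25 hippocampal calls and 10% of the 10 muscle calls, beside 19.3% and 33.5% over all probes. At 7 days 2 were shared, Snrpn in the same direction and the bright Srsf2 probe in opposite directions, 9.09% and 20% beside 20.7% and 31.2%.

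**Figure D4:**
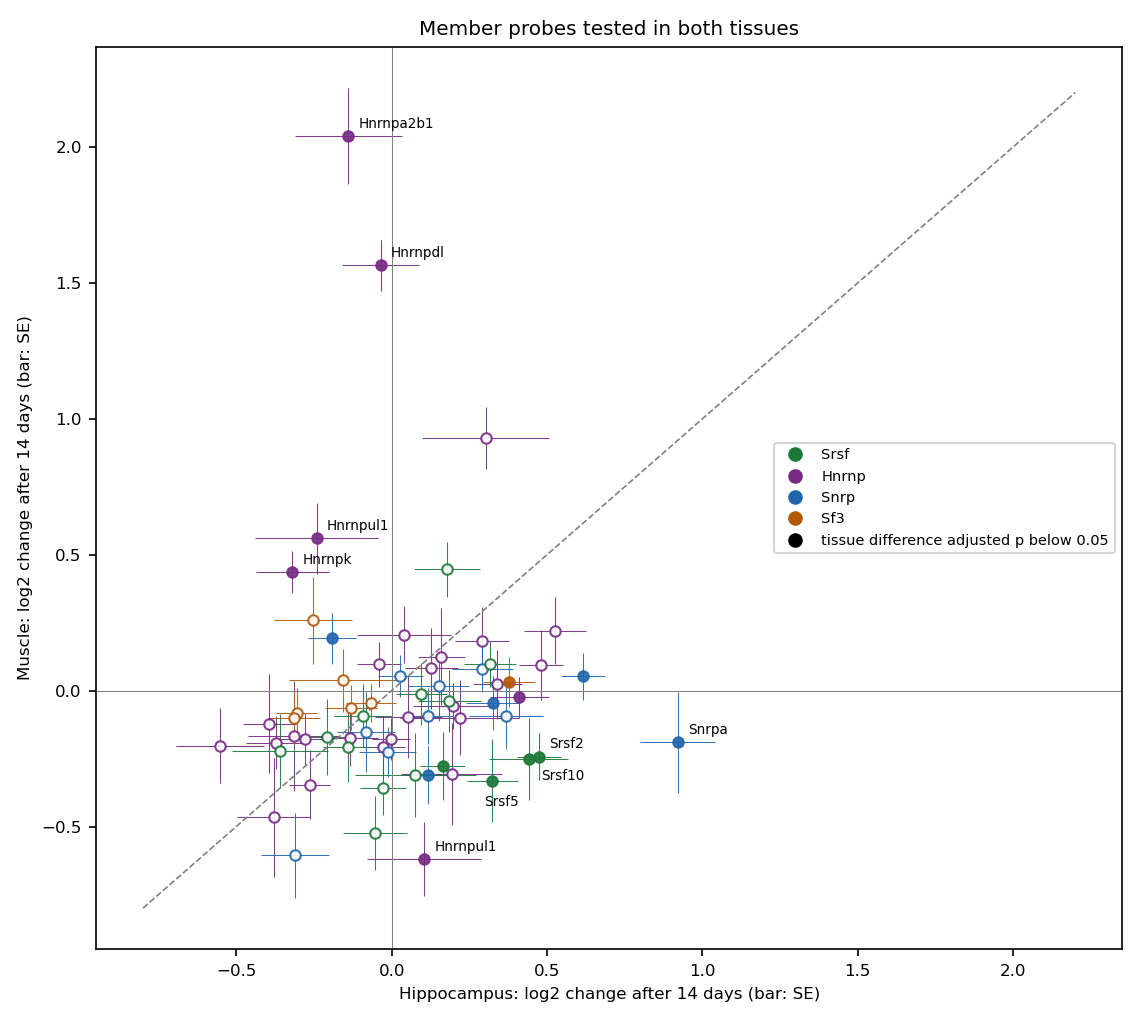
Log2 change after 14 days in hippocampus (horizontal) against muscle (vertical) with SE bars for the 64 member probes tested in both tissues; the dashed line marks equal change. Filled points differ between tissues at adjusted p below 0.05 (16 probes), and those with a difference beyond 0.6 are named: Hnrnpa2b1 and Hnrnpdl lie near 0 in hippocampus and at 2.04 and 1.56 in muscle, Snrpa at 0.92 and -0.19.

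The 3-day groups were close to saline. By limma 0 of 68 members were called in hippocampus, where 0% of all probes were, and 3 had an unadjusted p below 0.05, beside 823 of all 13659: Hnrnph2 (-0.24 ± 0.10, adjusted p = 0.795), Snrpc (0.27 ± 0.12, 0.813) and Snrpa (0.26 ± 0.12, 0.823). In muscle 0 of 66 were called, again beside 0% of all probes, and 7 had an unadjusted p below 0.05, beside 1434 of all 12977. Those with the smallest p were the brighter Hnrnpll probe, ILMN_2684732, at -0.43 ± 0.10 (adjusted p = 0.177) and Hnrnpa3 at -0.33 ± 0.10 (0.281). The Hnrnpa3 probe (ILMN_1220620) was detected on 1 of the 4 saline arrays and on no 3-day array, so its levels here are near background. That Hnrnpll probe read 8.88, 8.92, 8.80 and 8.86 in saline and 8.34, 8.49, 8.63 and 8.29 at 3 days, with no overlap. The authors' series values gave 1 member call in muscle at 3 days, beside 39 calls over all probes.

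The durations were also compared with each other. Against 3 days, 16 hippocampal members were higher and 9 lower at 7 days (36.8% beside 26.2% of all probes), and 16 higher and 7 lower at 14 days (33.8% beside 27%). In muscle 7 were higher and 3 lower at 7 days (15.2% beside 18.2%, of which 10.5% higher and 7.71% lower), and 8 higher and 1 lower at 14 days (13.6% beside 19.2%, of which 11% higher and 8.16% lower). The probes counted over include some that were undetected on every 3-day array and kept through the longer-course groups. They are Hnrnpul1 (ILMN_2688427) in hippocampus, and Hnrnpu and Hnrnpa3 (ILMN_1220620) in muscle. For these probes a higher level against 3 days is a description with no test. Between 7 and 14 days 0 members and 0% of all probes were called in either tissue, and 1 member in each had an unadjusted p below 0.05, beside 404 probes in hippocampus and 631 in muscle. Those were Srsf3 in hippocampus (-0.17 ± 0.07, adjusted p = 0.999) and Hnrnpk in muscle (0.22 ± 0.08, 0.920). The 7- and 14-day comparisons share their saline arrays, so calls at both durations are not independent. In hippocampus 12 members rose and 9 fell at both, and in muscle 6 rose and 3 fell at both, with 0 turned around. The same overlap over all probes was not counted.

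In saline-injected mice most members differed between the tissues, as did most of the array. Muscle was higher for 19 of 70 members and lower for 34, 75.7% beside 81.1% of 15321 probes (43% higher and 38.1% lower), with all 32 arrays quantile-normalized together. These counts include Hnrnph2, Srsf12, Sf3a2 and Hnrnpul1 (ILMN_2675170), which entered through the tissue where they are high and are given below with no test. Snrpn was the member with the largest difference. Its bright probe read 11.31, 11.14, 11.15 and 10.98 in muscle and 15.04, 15.14, 15.11 and 15.01 in hippocampus, a 15.2-fold lower level in muscle (-3.93 ± 0.08, adjusted p = 2.43e-28, limma), and its other probe was at -3.31 ± 0.14. Hnrnph2 and Srsf12 were undetected on all 4 muscle saline arrays and were at least 5.01-fold and 3.46-fold lower there, given with no test because they entered this comparison through hippocampus.

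Other members lower in muscle were Hnrnpl, a CA-repeat binder, at -2.19 ± 0.14, Srsf5 at -2.10 ± 0.12, Sf3b2 at -1.22 ± 0.08 and Sf3b3 at -1.13 ± 0.09 (adjusted p from 1.65e-12 to 7.70e-16, limma). Higher in muscle were Snrpc at 2.08 ± 0.12, Srsf2 at 1.13 ± 0.08 by its bright probe and 0.47 ± 0.10 by ILMN_2806029, and Snrpb at 1.09 ± 0.12. Snrpc read 7.73, 8.11, 7.84 and 7.67 in muscle and 5.86, 5.63, 5.58 and 5.95 in hippocampus. The Hnrnpul1 probe ILMN_2675170 and Sf3a2 were undetected on the 4 hippocampal saline arrays and at least 2.86-fold and 1.56-fold higher in muscle, and the other muscle-changing Hnrnpul1 probe was at 1.14 ± 0.15 (adjusted p = 8.16e-08), detected on 1 of 4 hippocampal arrays. The SmN gene and the SmB gene Snrpb, which encode near-identical proteins, thus lay on opposite sides. With median scaling 29 members were higher in muscle and 25 lower (53.7% of member calls higher, beside 60.7% of all calls). All 19 higher calls and 25 of the 34 lower ones held, and 1 turned around. Srsf2 was then at 1.81 and 1.01, Snrpb at 1.73, Sf3b2 at -0.53 and Sf3b3 at -0.69, and without background correction Snrpc was at 0.95 and Hnrnpul1 ILMN_1239335 at 0.38, all still calls.

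**Figure D5:**
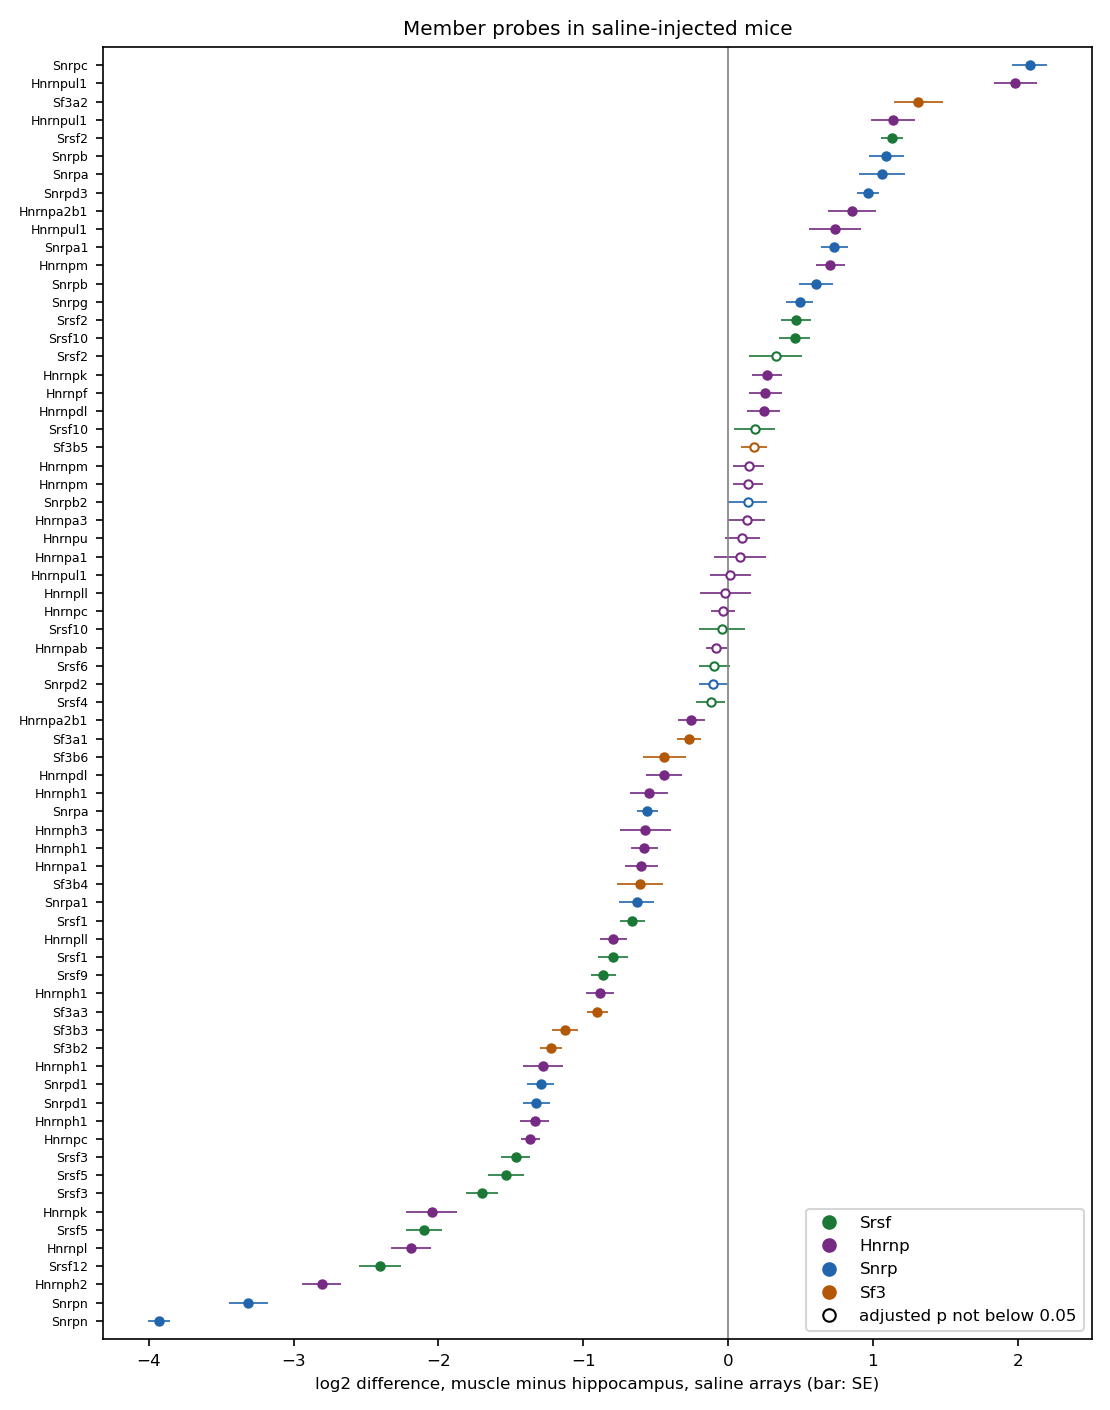
Difference in normalized log2 intensity, muscle minus hippocampus, between the 4 saline arrays of each tissue for 70 member probes tested in either tissue, with SE bars; filled points have adjusted p below 0.05. Values run from -3.93 for Snrpn to 2.08 for Snrpc.

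Other splicing genes outside the 4 symbol families were read by their brightest tested probe at 14 days. In hippocampus 10 of 56 further spliceosome components rose and 11 fell, beside 12.6% and 17.5% of all genes. The largest rises were those of Bud31, a component of the activated spliceosome, at 1.05 ± 0.11 and the U11/U12 protein Snrnp35 at 0.99 ± 0.09, and the largest falls those of the U6 ring protein Lsm3 at -0.46 ± 0.10 and the tri-snRNP protein Prpf31 at -0.46 ± 0.15 (adjusted p from 1.13e-05 to 0.0268, limma). Of 29 tissue-specific and general splicing regulators 3 rose and 7 fell, with the RNA-stabilizing Elavl1 at 0.73 ± 0.09 and the exon regulator Rbfox2 at -0.90 ± 0.11, and of 14 SR-related proteins and kinases 1 rose (Srrm2, 0.56 ± 0.12) and 2 fell (Acin1 at -0.50 ± 0.11 and Clk2 at -0.31 ± 0.10). With median scaling these counts became 11 and 0, 5 and 1, and 1 and 1.

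In muscle 10 of the 56 spliceosome components rose and 0 fell at 14 days, beside 10.4% and 7.48% of all genes. Bcas2, of the Prp19 complex, stood at 1.27 ± 0.10 and the helicase-like Aqr at 1.01 ± 0.21 (adjusted p = 5.43e-08 and 0.00253, limma). Of 28 regulators 3 rose, led by the paraspeckle protein Nono at 1.03 ± 0.13 and Tial1 at 0.55 ± 0.10, and of 14 SR-related genes Scaf8 at 1.29 ± 0.11 and Srrm2 at 0.28 ± 0.09 rose. The absence of falls did not hold with median scaling, which gave 7 rises and 16 falls among components, 2 and 11 among regulators and 1 and 7 among SR-related genes, nor without background correction, where 6, 3 and 0 fell.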

How the data were processed

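Raw probe intensities were deposited for each of the 32 arrays, exported without normalization per the file headers, and BeadStudio 1.6.0 is named in the submitters' processing notes. A detection p-value per probe and array was deposited beside them, set against the negative controls per the file headers. The authors' series values are scores: within each array, log2 intensities were centred on their mean and divided by their SD, as tested on the deposited files.

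Intensities were background-corrected from the detection p-values (neqc in limma 3.58.1, R 4.3.3, offset 16), quantile-normalized within a tissue and put on the log2 scale. Probes with detection p below 0.05 on at least 4 of 16 arrays were tested. A limma model with 1 mean per group of 4 arrays gave the comparisons, with Benjamini-Hochberg adjustment over all tested probes and a threshold of 0.05. Tissue differences of the AICAR change were fitted over all 32 arrays, taken as independent, for probes kept in both tissues. The saline comparison of tissues used a joint quantile normalization. Lower bounds ("at least") set the dim group at each array's lowest detected signal, or the probe's own signal if higher. The script was tested on simulated data. The number of arrays limits the precision.

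The members and gene lists were chosen with earlier results of these data known. Genes were named by rule: per family, up to 3 called probes with the largest rise and fall at 7 and 14 days, and the 2 largest saline tissue differences in each direction. The rule also named the 2 smallest p-values at 3 days and for 14 against 7 days, the 3 largest tissue differences of the change in each direction, genes with opposed calls, a panel of 14 well-known members by their brightest probe, and 2 rises and 2 falls per list of other splicing genes. All 47 genes matched RefSeq by Entrez ID. Same-numbered arrays of different groups did not deviate together (correlations from -0.37 to 0.19 in hippocampus and from -0.25 to 0.18 in muscle), so the numbers were not used as pairs. Alternatives were no background correction, median scaling, the authors' values, no filter, detection on all arrays, a trended robust variance, array weights, a replicate block and leaving out each array.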

Additional observations from a re-analysis of the deposited data

Results flagged for a closer look

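Tissue differences in the AICAR change were flagged because the test of the difference itself passed (limma, adjusted p below 0.05). Muscle minus hippocampus, the differences at 7 days were 2.09 for Hnrnpa2b1 (ILMN_2771074), 1.57 for Hnrnpdl (ILMN_2903440), 0.92 for Hnrnpul1 (ILMN_1239335), -0.89 for Snrpa (ILMN_1247582), -0.87 for Srsf10 (ILMN_3019002) and -0.82 for Hnrnpul1 (ILMN_2675170). At 14 days they were 2.18 for Hnrnpa2b1, 1.60 for Hnrnpdl, 0.80 for Hnrnpul1 (ILMN_1239335), -1.11 for Snrpa, -0.72 for Hnrnpul1 (ILMN_2675170) and -0.72 for Srsf2 (ILMN_2636335).

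Single arrays far from the other 3 of their group were found in 10 of 292 groups tested, and chance flags about 1 in 20. Low hippocampal arrays were those of Hnrnpm (ILMN_1239021) in 3-day replicate 4 at 10.53 and in saline replicate 3 at 10.37, of Hnrnph2 in 3-day replicate 3 at 7.44 and of Sf3a1 in saline replicate 1 at 9.44. Hnrnpa2b1 (ILMN_2615855) was high in hippocampal 3-day replicate 4 at 11.49. Low muscle arrays were those of Srsf3 (ILMN_2733399) in 3-day replicate 1 at 6.43, against 7.13 to 7.22 on the others, and of Srsf5 (ILMN_3148662) in saline replicate 2 at 9.94. High muscle arrays were those of Snrpd1 (ILMN_2610105) in saline replicate 4 at 9.72, and of Hnrnpul1 (ILMN_2688427) in 14-day replicate 3 at 6.08 and 7-day replicate 1 at 6.03.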

How the results depend on the processing

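Of 88 named results that were calls, 58 stayed calls in the same direction under every setting in which their probe was tested. A further 30 were lost under at least 1, and none turned around. The cause of these losses was not tested. The 58 include results given above with no test, for probes that passed the filter through the group where they are high. Those are Hnrnpu in muscle, and Hnrnph2, Srsf12, Sf3a2 and Hnrnpul1 (ILMN_2675170) between saline tissues. The count of 58 is thus not one of tested results alone. With median scaling the member probes called became 13 in hippocampus at 14 days, 28 and 26 in muscle at 7 and 14 days, and 37 and 31 for the tissue difference at 7 and 14 days. Over all probes the same calls moved from 4033 to 2179, from 2558 and 2441 to 4802 and 5298, and from 1894 and 1866 to 5625 and 3638. The other splicing genes called at 14 days became 19 in hippocampus and 44 in muscle with median scaling. With the authors' series values the member calls in muscle became 1, 21 and 19 at 3, 7 and 14 days, and the tissue difference at 7 days 23. Over all probes the muscle calls moved from 0, 2558 and 2441 to 39, 4043 and 3784, and that tissue difference from 1894 to 3154. The other splicing genes called in muscle at 14 days became 29 with the authors' values. They were 27 without background correction and 23 with a trended robust variance, against 15. Leaving out each array in turn, the member calls in hippocampus ranged from 18 to 22 at 7 days and from 20 to 24 at 14 days, and against 3 days from 19 to 24 and from 18 to 23. In muscle they ranged from 7 (without saline replicate 1 or 7-day replicate 3) to 13 at 7 days and from 10 to 15 at 14 days, and against 3 days from 7 to 10 and from 8 to 10. The tissue difference ranged from 12 to 15 at 7 days and from 10 (without hippocampal saline replicate 2) to 18 at 14 days, the saline comparison from 50 to 53, and other splicing genes from 27 to 33 in hippocampus and from 14 to 18 in muscle. The 3-day comparisons and 14 against 7 days kept 0. Fitted with the replicate block, although the numbers do not pair the arrays, the member calls were 23 and 24 in hippocampus, 10 and 12 in muscle, 14 and 15 for the tissue difference at 7 and 14 days, and 51 between saline tissues.

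Changes that were not calls turned sign at 14 days. With median scaling these were Snrpb (ILMN_1239922, 0.0245) and Hnrnph1 (ILMN_1218767, 0.0225) in hippocampus, and Snrpn (ILMN_1247894, -0.0361) and Hnrnpdl (ILMN_2690061, -0.14) in muscle. Leaving out 1 array, hippocampal ranges were -0.0215 to 0.018 for Hnrnpc (ILMN_1235470; 0.018, 0.0102 and 0.0048 without 14-day replicate 1 and saline replicates 2 and 4), -0.0567 to 0.0162 for Hnrnph1 (ILMN_1218767), -0.0105 to 0.2548 for Hnrnpul1 (ILMN_2675170) and -0.069 to 0.2068 for Srsf2 (ILMN_1235653). Muscle ranges were -0.11 to 0.18 for Hnrnpdl (ILMN_2690061) and -0.079 to 0.0288 for Snrpd1 (ILMN_2610105). Probes detected on few arrays have levels near background, which limits their fold changes.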
